A study of Mus musculus with 33 samples.

Results

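Loss of the arginine tRNA n-Tr20 was compared between strains of mice, as the difference between the knockout effect on a C57BL/6NJ (B6N) and on a C57BL/6J (B6J) background. The comparison used 17 of the 33 libraries of the series, all of forebrain RNA, from 16 mice in 4 groups of 4 mice. The groups were C57BL/6NJ mice with wild-type n-Tr20, C57BL/6NJ mice that were n-Tr20 -/-, C57BL/6J mice carrying the transgene Tg(n-Tr20), and C57BL/6J mice that were n-Tr20 -/-. They are called B6N wild type, B6N knockout, B6J transgenic and B6J knockout. All mice were 8 weeks old. C57BL/6J mice are hypomorphic mutants for n-Tr20, so the B6J control group was the one in which the B6N form of the tRNA had been added back by transgene on top of the hypomorphic allele. Neither the promoter nor the copy number of the transgene is stated in the labels. The B6N effect was the change from B6N wild type to B6N knockout, the B6J effect was the change from B6J transgenic to B6J knockout, and the question was which genes responded alike and which did not.

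Transfer RNAs bring amino acids to the ribosome. n-Tr20 (n-TRtct5 in the RefSeq annotation, chr1:173390329-173390402 in GRCm38.p6) is a tRNA of the nervous system that reads the arginine codon AGA, and ribosomes can stall at AGA when it is scarce. Shortage of charged tRNA and stalled ribosomes are known to activate the kinase GCN2, which phosphorylates the translation factor eIF2. That lowers general protein synthesis but raises translation of ATF4, a transcription factor that switches on genes for amino acid uptake and synthesis, for tRNA charging and for handling stress. This programme is called the integrated stress response. The tRNA itself was not measured here, so the genotypes rest on the labels.

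All 4 B6N wild-type, all 4 B6N knockout and all 4 B6J transgenic libraries were in the labelled batch 1, and all 4 B6J knockout libraries were in batch 2. Transgenic mouse 4 was sequenced in both batches, and its second library, called the repeat library, is the only direct link between them. Total estimated counts, in units of 1000000, were 20.8 to 24.2 in B6N wild type, 17.8 to 23.5 in B6N knockout, 17.2 to 38.5 in B6J transgenic (the repeat library included) and 14.8 to 20.7 in B6J knockout. Levels are given as CPM, which is counts per 1000000 counts after TMM scaling. B6J knockouts 1 to 3 were female by the RNA Xist (335, 369 and 348 CPM) and B6J knockout 4 and the other mice were male (2.05 CPM or less). Sex therefore partly follows the B6J knockout group, and batch follows it wholly. Choroid plexus markers also moved with it. The summed level of 17 such markers was 869 to 1130 CPM in B6J knockouts, 254 to 330 CPM in B6J transgenics, 246 to 520 CPM in B6N wild types and 239 to 710 CPM in B6N knockouts. Ttr, the defining choroid plexus gene, was at 349 to 501 CPM in all B6J knockouts and at 3.38 to 50.6 CPM in batch 1 B6J transgenics. Forebrain neuron markers summed to 4790 to 5680 CPM in every library of the 4 groups, the repeat library (4720 CPM) excepted.

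After filtering of low counts, 25481 genes were tested with edgeR's quasi-likelihood F test. A gene is said to pass, rise or fall at a Benjamini-Hochberg adjusted p under 0.05, and errors of log2 fold changes are standard errors. The B6N effect passed in 418 genes (1.64% of those tested), of which 247 rose (0.969%) and 171 fell (0.671%). The B6J effect passed in 188 genes (0.738%), of which 139 rose (0.546%) and 49 fell (0.192%). The difference between the effects passed in 62 genes (0.243%), in 19 of them with the B6N effect above the B6J effect (0.0746%) and in 43 below it (0.169%). In 33 genes (0.13%) both effects passed with the same sign, 30 of them rising and 3 falling. These made up 7.89% of the genes that passed in B6N and 17.6% of those that passed in B6J. Both effects passed with opposite sign in 0 genes by edgeR, against 166 at an unadjusted p under 0.05 and 7 by DESeq2. Single libraries moved these counts. Leaving out 1 B6N mouse gave 186 to 268 genes for the B6N effect, and 649 without B6N knockout 4. Without B6J transgenic 1, 2 or 3 the B6J effect passed in 402, 285 or 321 genes. The difference passed in 211 without B6J transgenic 1, 112 without B6J transgenic 3, 134 without B6J knockout 3, 96 without B6N knockout 4 and 39 without B6N wild type 1, and 53 genes passed in both strains without B6J transgenic 1.

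The median standard error over 20365 genes of at least 1 CPM was 0.09 for the B6N effect, 0.18 for the B6J effect and 0.2 for the difference, since the batch term in the B6J effect rests on the libraries of transgenic mouse 4. The fit described below as without the batch term also left out the repeat library. Of the 247 genes that rose in B6N, 191 (77.3%) also had a B6J effect above 0, with medians of 0.24 in B6N and 0.16 in B6J. Of the 171 that fell in B6N, 98 (57.3%) had a B6J effect below 0, with medians of -0.28 and -0.04. Over all genes tested, 52.3% had the same sign in both. Of 385 genes that passed in B6N and not in B6J, the difference was not past the threshold in 378, and of 155 that passed in B6J and not in B6N it was not in 106.

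**Figure D1:**
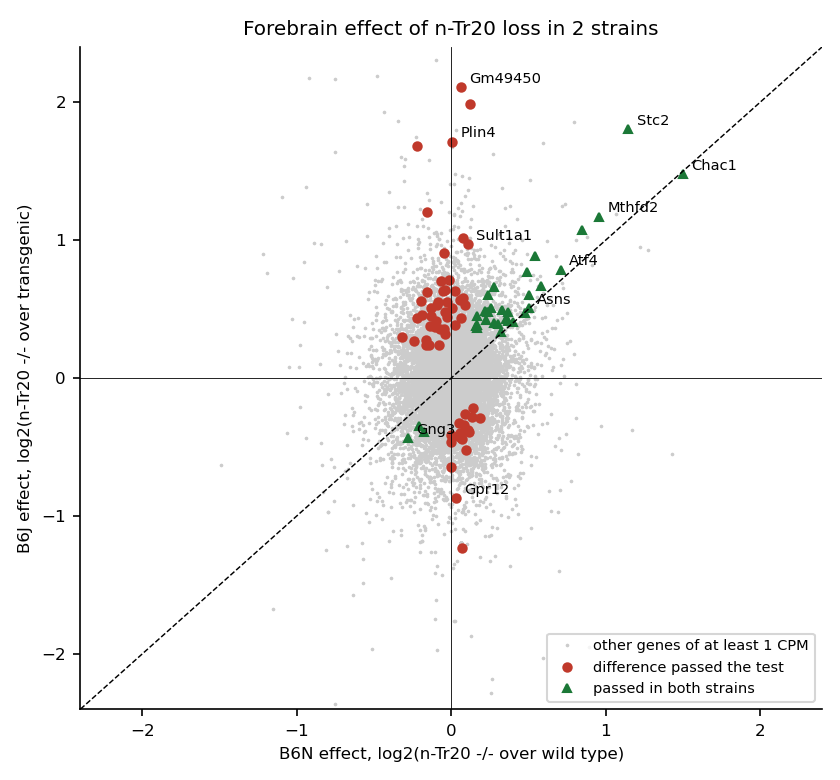
B6N effect (x axis) and B6J effect (y axis), both as log2 fold changes in forebrain, for genes of at least 1 CPM, with 41 genes beyond the axis limit of 2.4 not drawn. The 33 genes that passed in both strains (triangles) lie near the dashed line of equal effect, while genes whose difference passed (circles) lie along the vertical axis, at B6N effects no larger than 0.32 in size.

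Atf4 (chr15:80255184-80257545) rose by nearly the same amount in both strains. It was at 57.6, 57.3, 57.7 and 54.9 CPM in B6N wild types and at 91, 97, 95.5 and 88.3 CPM in B6N knockouts. It was at 58.9, 61.2, 62.8 and 58.1 CPM in B6J transgenics, 49.6 CPM in the repeat library, and 86.5, 88, 86.2 and 94 CPM in B6J knockouts. Every knockout lay above every control, with no overlap in either strain. The log2 fold change was 0.71 ± 0.04 in B6N (1.63-fold, adjusted p = 1.49e-13, edgeR) and 0.79 ± 0.08 in B6J (1.72-fold, adjusted p = 2e-06, edgeR). The difference was -0.08, with a 95% interval from -0.26 to 0.11 (adjusted p = 0.847, edgeR).

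By the smaller of both effects, Chac1 had the largest rise of the shared genes. Chac1, an ATF4 target that degrades glutathione, was at 3.35, 2.52, 2.13 and 2.7 CPM in B6N wild types and 7.29, 7.33, 8.16 and 7.29 CPM in B6N knockouts. In B6J transgenics it was at 3.35, 2.72, 2.72 and 2.55 CPM, in the repeat library at 2.42 CPM, and in B6J knockouts at 6.97, 7.72, 7.39 and 7.95 CPM. The groups did not overlap, and the rise was 2.83-fold in B6N (log2 1.5 ± 0.12) and 2.78-fold in B6J (1.48 ± 0.26), with a difference of 0.02 (95% interval -0.56 to 0.60).

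Promoters were read to see whether the genes that rose together share a sequence that ATF4 can bind. ATF4 is known to bind, with partners of the C/EBP family, to a composite element whose core is TGATGNAA (N is any base), searched here on both strands of the 300 bases around each start site (250 bases before to 50 after) in RefSeq promoters of GRCm38.p6. Of the 30 genes that rose in both strains, 25 had a promoter entry, and the core stood in 5 of them (20%): Aars, Asns, Chac1, Gars and Yars. Over the 14515 genes tested that had an entry, it stood in 3.32%, and over all 32851 promoters in 3.97%. The full cAMP response element TGACGTCA, which overlaps in part with such elements, was in 0 of the 25, against 2.96% of genes tested, and the D-box TTATGTAA in 0, against 0.868%. Of the genes whose difference was below 0, 30 had an entry, with the ATF4 core in 2 (6.67%, Jdp2 and Mcf2l), the cAMP response element in 3 (10%, Chgb, Chmp2a and Gtf2f1) and the D-box in 1 (3.33%, Jdp2). Of those above 0, 12 had an entry, and 0 held any of these letters. The 15-letter glucocorticoid response element, in 0.00913% of all promoters, was in 0 of these sets. A match is a description of these letters and not of binding. The 250 bases before the start site are shown for 3 of these genes with the core in capitals (Chac1, plus strand, chr2:119350992-119351241; Asns, minus strand, chr6:7693210-7693459; Gars, plus strand, chr6:55037751-55038000), and for Jdp2 (plus strand, chr12:85599166-85599415), the member of the stress list whose effect differed between strains.
Chac1: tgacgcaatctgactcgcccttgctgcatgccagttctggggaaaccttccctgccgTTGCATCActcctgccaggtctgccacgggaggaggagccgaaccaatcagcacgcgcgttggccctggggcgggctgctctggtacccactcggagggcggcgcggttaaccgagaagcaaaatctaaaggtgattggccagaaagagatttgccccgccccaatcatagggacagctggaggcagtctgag
Asns: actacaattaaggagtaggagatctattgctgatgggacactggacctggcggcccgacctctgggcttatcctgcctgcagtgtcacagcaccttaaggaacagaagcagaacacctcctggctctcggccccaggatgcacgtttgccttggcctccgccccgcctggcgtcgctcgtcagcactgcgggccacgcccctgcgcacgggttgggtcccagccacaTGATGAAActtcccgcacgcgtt
Gars: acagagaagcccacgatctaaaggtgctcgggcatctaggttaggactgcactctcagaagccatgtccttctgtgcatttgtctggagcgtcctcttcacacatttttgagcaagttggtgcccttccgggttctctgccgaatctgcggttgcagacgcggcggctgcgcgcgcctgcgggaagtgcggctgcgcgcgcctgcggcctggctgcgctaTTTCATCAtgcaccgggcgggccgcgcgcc
Jdp2: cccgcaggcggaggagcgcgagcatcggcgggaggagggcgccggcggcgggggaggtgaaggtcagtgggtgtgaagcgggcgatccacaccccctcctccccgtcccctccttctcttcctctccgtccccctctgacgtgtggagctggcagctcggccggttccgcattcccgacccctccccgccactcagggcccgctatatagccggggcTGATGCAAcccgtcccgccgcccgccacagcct
The core began 193 bases before the start site in Chac1, 23 in Asns, 30 in Gars and 33 in Jdp2. In Chac1 and Gars it is read on the opposite strand, and Chac1 and Jdp2 carry the same 8 letters on opposite strands (TTGCATCA and TGATGCAA).

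Several single genes of amino acid and one-carbon metabolism rose in both strains, while of 29 amino acid transporters as a list 4 rose in B6N and 2 in B6J, with medians of 0.0 and -0.01. The shares that rose over all genes tested were 0.969% in B6N and 0.546% in B6J. Asns, which makes asparagine, was at 60.7 to 67.8 CPM in B6N wild types, 87.8 to 95.5 CPM in B6N knockouts, 55.9 to 62.3 CPM in B6J transgenics with the repeat library, and 80 to 84.6 CPM in B6J knockouts, so that the groups did not overlap. Its effect was 0.50 ± 0.05 in B6N and 0.51 ± 0.09 in B6J. Mthfd2, a mitochondrial folate enzyme, rose by 0.96 ± 0.12 and 1.17 ± 0.23, and Aldh1l2, another, by 0.85 ± 0.09 and 1.07 ± 0.19. Slc7a5, a carrier of large neutral amino acids, rose by 0.50 ± 0.07 and 0.60 ± 0.15, and Slc7a1, the main carrier of arginine and lysine into cells, by 0.37 ± 0.05 and 0.48 ± 0.11. The B6J effect on Slc7a5 was just inside the threshold (adjusted p = 0.0475, edgeR). It was lost in 7 of 15 fits that each left out 1 library (B6J knockouts 1, 2 and 4 and B6N wild types 1 to 4), where its log2 value stayed between 0.56 and 0.67 and the adjusted p reached 0.07.

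Among secreted and surface proteins, Stc2, a stress-induced hormone, was at 1.21 to 1.96 CPM in B6N wild types and at 3.17 to 3.69 CPM in B6N knockouts. In B6J it went from 0.965 to 1.8 CPM in transgenics to 3.45 to 4.79 CPM in knockouts. It rose 2.21-fold in B6N (1.15 ± 0.17) and 3.5-fold in B6J (1.81 ± 0.36), and the difference of -0.66 had a 95% interval from -1.46 to 0.14. Ddr2, a collagen receptor, rose by 0.54 ± 0.08 and 0.88 ± 0.16. Bex1, a small protein of neurons encoded on the X chromosome, rose by 0.58 ± 0.06 and 0.67 ± 0.12.

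Aminoacyl-tRNA synthetases, the enzymes that charge tRNAs, split the same way in both strains. Of 12 synthetases known to be induced by ATF4, 11 rose in B6N and 6 in B6J, and the 6 (Cars, Nars, Yars, Gars, Aars and Sars) rose in both. Cars rose by 0.49 ± 0.05 in B6N and 0.77 ± 0.11 in B6J, Nars by 0.36 ± 0.04 and 0.43 ± 0.08, and Yars by 0.30 ± 0.04 and 0.39 ± 0.08. The call of Gars in B6J was lost without B6J knockout 2 or 4 or B6N wild type 4 (adjusted p up to 0.0553, edgeR), and that of Aars in B6N without B6N wild type 1 or 4 or B6N knockout 2 or 3 (up to 0.093). The group's median was 0.26 in B6N and 0.37 in B6J, against 0.0 and 0.01 over all genes tested. Of the latter 0.969% rose in B6N and 0.546% in B6J. The difference passed in 0 of 12 by edgeR (2 at an unadjusted p under 0.05, 1 by DESeq2). Of the other 8 cytosolic synthetases only Hars passed, falling by 0.26 in B6N, with medians over the 8 of 0.10 and 0.05.

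Across the wider list of ATF4 and integrated stress response genes, 44 were measured. Of these 17 rose and 0 fell in B6N, 12 rose and 0 fell in B6J, and 9 rose in both. The medians were 0.25 and 0.44, against 0.0 and 0.01 over all genes tested, of which 0.969% rose in B6N and 0.546% in B6J. Several members passed in one strain only without a difference past the threshold. Slc7a3, another arginine carrier, was at 4.95 to 7.03 CPM in B6N wild types and 12.4 to 18.1 CPM in B6N knockouts (1.22 ± 0.13). In B6J it was at 4.46 to 6.14 CPM in batch 1 transgenics, 6.65 CPM in the repeat library and 10.7 to 13.7 CPM in knockouts. These did not overlap either, but the effect of 0.95 ± 0.27 did not pass (adjusted p = 0.112, edgeR). It passed within batch 2 (0.94), without the batch term (1.24), with a replicate block (0.95) and without B6N knockout 1 (0.95). Sesn2, which restrains mTORC1, had effects of 0.58 ± 0.10 and 0.74 ± 0.21, and Atf5, a relative of Atf4, of 0.68 ± 0.12 and 0.89 ± 0.25, passing in B6N alone. Trib3, an inhibitor of ATF4 signalling, passed in B6J alone (2.52 ± 0.63, adjusted p = 0.0488, edgeR), at under 1.1 CPM in every library, and lost the call in 10 of 15 fits that each left out 1 library (B6J knockouts 1, 2 and 4, B6N wild types 1, 2 and 4 and B6N knockouts 1 to 4), where the adjusted p reached 0.0699.

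The remaining 18 of the 33 genes that changed in both strains were on neither the stress nor the synthetase list. Nudt3, an enzyme of diphosphoinositol breakdown, was at 156 to 168 CPM in B6N wild types, 209 to 228 CPM in B6N knockouts, 147 to 168 CPM in B6J transgenics with the repeat library and 196 to 203 CPM in B6J knockouts. Its effects were 0.40 ± 0.04 and 0.41 ± 0.08. The B6J mice without the transgene, in batch 1, were at 195 to 207 CPM, so high Nudt3 in B6J was not particular to complete loss. Adar, which edits adenosine to inosine in RNA, rose by 0.37 ± 0.04 and 0.41 ± 0.08, and Trim66, a chromatin reader, by 0.48 ± 0.05 and 0.48 ± 0.11. Kif5a, a motor of axonal transport, rose by 0.16 ± 0.03 and 0.38 ± 0.07. Among the 3 genes that fell were Gng3, a neuronal G protein gamma subunit (-0.28 ± 0.05 and -0.44 ± 0.10), and Rab2a, a GTPase of membrane traffic (-0.21 ± 0.04 and -0.35 ± 0.08). Without the batch term the B6J effect on Rab2a was -0.07 and did not pass.

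None of the 33 genes passed the test of the difference by edgeR, 11 did at an unadjusted p under 0.05, and 1 did by DESeq2. For 27 of them the 95% interval of the difference lay within 1.5-fold either way. By size, 31 of the 33 effects were larger in B6J, with medians of 0.32 in B6N and 0.48 in B6J. Passing in B6J took a larger effect, since the median standard error was 0.18 there and 0.09 in B6N. The choice of genes therefore favoured this order, and whether the strains also differ in size was not tested apart from that choice. The order also depended on the batch term. Without that term the B6J median was 0.29, and within batch 2, against the repeat library alone, it was 0.53. The signs held in every alternative fit. Both effects passed in 29 of the 33 without the batch term, in 26 with choroid plexus markers as a covariate, in 19 with the male B6J knockout 4 alone, and in 8 with an offset for effective transcript length. In the last 2 fits the median size of the B6J effect was 0.47 and 0.48, against 0.48.

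**Figure D2:**
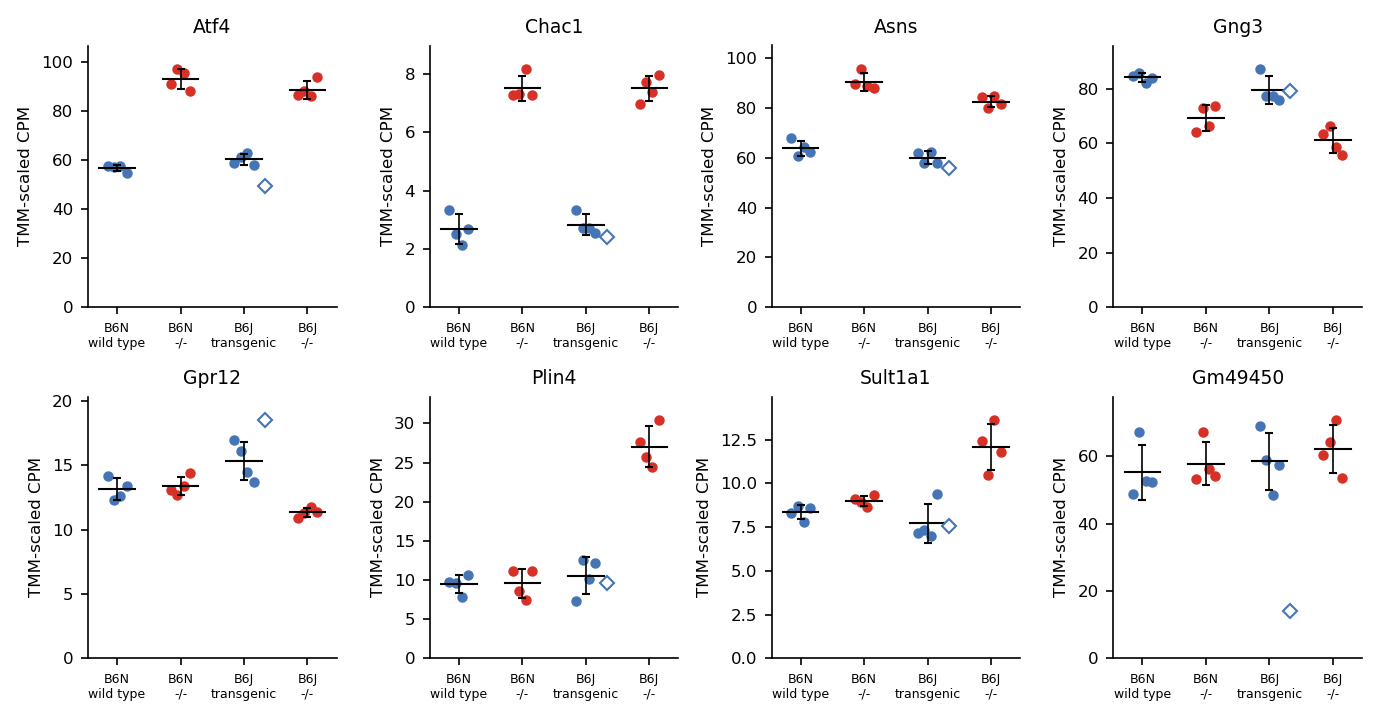
TMM-scaled CPM of 8 genes in each library (filled points), with the mean and SD over 4 mice as a line and bar, and the batch 2 repeat library of transgenic mouse 4 as an open diamond. Atf4, Chac1 and Asns were higher and Gng3 lower in knockouts of both strains, Gpr12, Plin4 and Sult1a1 moved in B6J alone, and for Gm49450 the repeat library alone stood apart.

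Gpr12 (chr5:146582150-146586465), an orphan receptor of neurons that raises cyclic AMP, fell in B6J and not in B6N. It was at 14.2, 12.3, 12.6 and 13.4 CPM in B6N wild types and 13.1, 12.7, 13.4 and 14.4 CPM in B6N knockouts, which overlapped fully. It was at 17, 16.1, 14.5 and 13.7 CPM in B6J transgenics, 18.5 CPM in the repeat library, and 10.9, 11.3, 11.8 and 11.4 CPM in B6J knockouts, which did not overlap. The 4 B6J mice without the transgene, all in batch 1, were at 12.2, 10.4, 11.4 and 12 CPM, below every transgenic library. Low Gpr12 was therefore not particular to complete loss. The B6N effect was 0.03 ± 0.07, the B6J effect was -0.87 ± 0.14 (1.82-fold lower) and the difference was 0.90 ± 0.15 (adjusted p = 0.01, edgeR). The repeat library was above the batch 1 library of the same mouse, and without the batch term the difference was 0.47 (adjusted p = 0.013, edgeR). With the male B6J knockout 4 as the only B6J knockout it was 0.88, a fit that takes the spread of this lone library from the other groups. The difference passed in all 15 fits that left out 1 library.

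Plin4 (chr17:56100587-56109948), a protein that coats lipid droplets, rose in B6J alone. It was at 9.8, 9.67, 7.89 and 10.6 CPM in B6N wild types and 11.1, 8.59, 7.5 and 11.2 CPM in B6N knockouts. It was at 7.37, 12.5, 10.1 and 12.2 CPM in B6J transgenics, 9.64 CPM in the repeat library and 27.6, 25.7, 24.4 and 30.4 CPM in B6J knockouts. The 4 B6J knockouts, of both sexes, lay above the other 13 of the 17 libraries compared, and 4 further B6J mice without the transgene were at 11.7 to 14.8 CPM. The B6N effect was 0.01 ± 0.15, the B6J effect 1.71 ± 0.29 (3.28-fold) and the difference -1.71 ± 0.32 (adjusted p = 0.0355, edgeR). Without the batch term the difference was -1.36 (adjusted p = 0.00311, edgeR). It was near the threshold, and 6 of 15 fits that left out 1 library lost it (without B6J knockout 1 or 2, B6N wild type 1, 2 or 4, or B6N knockout 2), with the log2 value between -1.81 and -1.57 and the adjusted p up to 0.0653.

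Plin4 was also on a list of 24 genes known to respond to glucocorticoids. In B6J 4 of these rose (Plin4, Sult1a1, Fkbp5 and Map3k6) and 0 fell, with a median of 0.38. Over all genes tested 0.546% rose in B6J, and the median was 0.01. The call of Map3k6, a stress kinase, was lost without B6J knockout 1, B6N wild type 1 or B6N knockout 2 (adjusted p up to 0.0737, edgeR), and without the batch term its B6J effect was 0.38 against 1.05. With choroid plexus markers as a covariate the adjusted p was 0.0623 for Map3k6 and 0.0704 for Fkbp5 (edgeR). In B6N 1 rose and 1 fell, with a median of -0.04. The difference passed in 3, all lower in B6N (0.169% of all genes tested): Plin4, Sult1a1 and Tsc22d3. Sult1a1, a sulfotransferase, was at 7.81 to 8.7 CPM in B6N wild types, 8.65 to 9.31 CPM in B6N knockouts, 6.97 to 9.37 CPM in B6J transgenics and 10.5 to 13.6 CPM in B6J knockouts (B6N 0.11 ± 0.09, B6J 0.97 ± 0.17, difference -0.86 ± 0.19). Tsc22d3, the glucocorticoid-induced leucine zipper, had effects of opposite sign. It was lower in B6N knockouts (51.7 to 62.2 CPM) than in B6N wild types (68.3 to 73.8 CPM), and higher in B6J knockouts (77.5 to 90.3 CPM) than in B6J transgenics (58.5 to 69.6 CPM, and 72.4 CPM in the repeat library). Its B6N effect of -0.32 ± 0.06 passed and its B6J effect of 0.30 ± 0.12 did not. Klf15, a transcription factor that glucocorticoids are also known to induce but that was not on the list, had effects of -0.20 ± 0.07 and 0.56 ± 0.15 and a difference of -0.75 ± 0.17 (adjusted p = 0.0355, edgeR). Fkbp5, a chaperone partner of the glucocorticoid receptor, was at 30 to 33.6 CPM in B6N wild types, 30.7 to 38.8 CPM in B6N knockouts, 26.2 to 29.1 CPM in B6J transgenics and 35.2 to 43.4 CPM in B6J knockouts. Its difference of -0.52 ± 0.14 did not pass (adjusted p = 0.117, edgeR), but it passed without the batch term (-0.46, adjusted p = 0.00483), within batch 2 (-0.44, adjusted p = 0.0302), by DESeq2 (-0.53, adjusted p = 0.0394) and without B6N knockout 1 (-0.61, adjusted p = 0.0294).

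Each of these calls was close to the threshold. Among 15 fits that left out 1 library, the difference was lost in 6 for Sult1a1, with adjusted p up to 0.0696, in 7 for Tsc22d3, up to 0.0812, and in 5 for Klf15, up to 0.0653. For all 3 genes these were the fits without B6N wild type 1, B6N wild type 4 or B6J knockout 1. The others were without B6N wild type 2 and B6N knockouts 2 and 3 for Sult1a1, B6J transgenic 3, B6J knockout 2, B6N wild type 3 and B6N knockout 2 for Tsc22d3, and B6J knockout 4 and B6N knockout 3 for Klf15. With choroid plexus markers as a covariate the adjusted p was 0.0611, 0.0749 and 0.14, at log2 differences of -0.98, -0.68 and -0.71. The part of sex, of batch and of choroid plexus content in these differences was not tested separately.

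**Figure D3:**
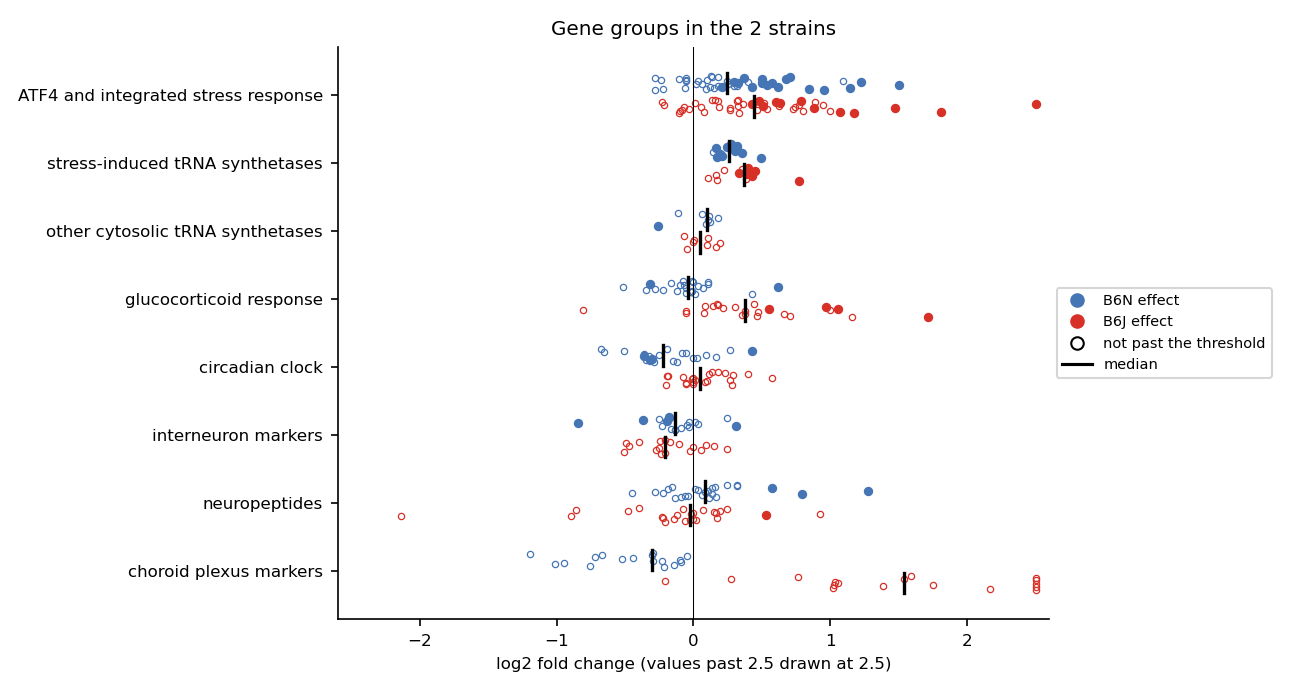
Log2 fold changes of single genes (points) in 8 gene lists, with the B6N effect above and the B6J effect below in each row, filled where the gene passed, and black ticks at the medians. The medians of the stress response and of the stress-induced synthetases lie above 0 in both strains, and that of the glucocorticoid list does so in B6J (0.38) and not in B6N (-0.04). Values past 2.5 are drawn at 2.5. Choroid plexus markers are drawn to show their spread, with medians of -0.31 and 1.54 and 0 of 17 past the threshold.

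Rgs4, a brake on G protein signalling, was at 317 to 333 CPM in B6N wild types, 339 to 405 CPM in B6N knockouts, 320 to 345 CPM in B6J transgenics, 353 CPM in the repeat library and 279 to 321 CPM in B6J knockouts. Its B6N effect of 0.19 and B6J effect of -0.29 were opposite in sign, with a difference of 0.48 ± 0.10 (adjusted p = 0.0239, edgeR). Slc8a1, a sodium-calcium exchanger, had effects of 0.14 and -0.21 and a difference of 0.35 ± 0.07. Atp2a2, the calcium pump of the endoplasmic reticulum, had effects of 0.13 and -0.28 and a difference of 0.41 ± 0.08. Zmat3, a p53 target that binds RNA, was at 70.9 to 81.1 CPM in all 8 B6N libraries, 73.9 to 86.6 CPM in B6J transgenics and 56.8 to 61.6 CPM in B6J knockouts (difference 0.51 ± 0.10).

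In the other direction, Islr2, a membrane protein of developing axons, was at 37.7 to 48 CPM in all B6N libraries, 36.8 to 44.3 CPM in B6J transgenics, 28.7 CPM in the repeat library and 47.8 to 54 CPM in B6J knockouts (difference -0.77 ± 0.13). The B6J mice without the transgene, in batch 1, were at 49.5 to 54.2 CPM. Ahnak, a very large scaffold protein under the cell membrane, was at 140 to 168 CPM in B6N, 124 to 154 CPM in B6J transgenics and 179 to 188 CPM in B6J knockouts, without overlap (B6J effect 0.55, difference -0.63 ± 0.10, adjusted p = 0.01, edgeR). Camkk1, a kinase upstream of calmodulin-dependent kinases, had effects of -0.14 and 0.38 and a difference of -0.52 ± 0.09. It was at 96.8 to 103 CPM in B6J knockouts and at 98.4 to 103 CPM in the B6J mice without the transgene.

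Jdp2, a repressor that binds as a partner of AP-1 and ATF factors, was the only one of the 44 stress-response genes whose difference passed, with effects of -0.06 ± 0.06 and 0.63 ± 0.12. Its levels did not show that size in batch 1. It was at 24.3 to 25.6 CPM in B6N wild types, 22.9 to 25.6 CPM in B6N knockouts, 21.7 to 24 CPM in B6J transgenics and 23.9 to 27.1 CPM in B6J knockouts, with 17 CPM in the repeat library. Without the batch term the difference was -0.19 (adjusted p = 0.231, edgeR). Chgb, a granule protein of neuropeptide vesicles, behaved likewise, with 221 CPM in the repeat library, 281 to 323 CPM in the other control and B6N knockout libraries, and 318 to 359 CPM in B6J knockouts. Its difference was -0.44 ± 0.09 with the batch term and -0.08 without it.

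**Figure D4:**
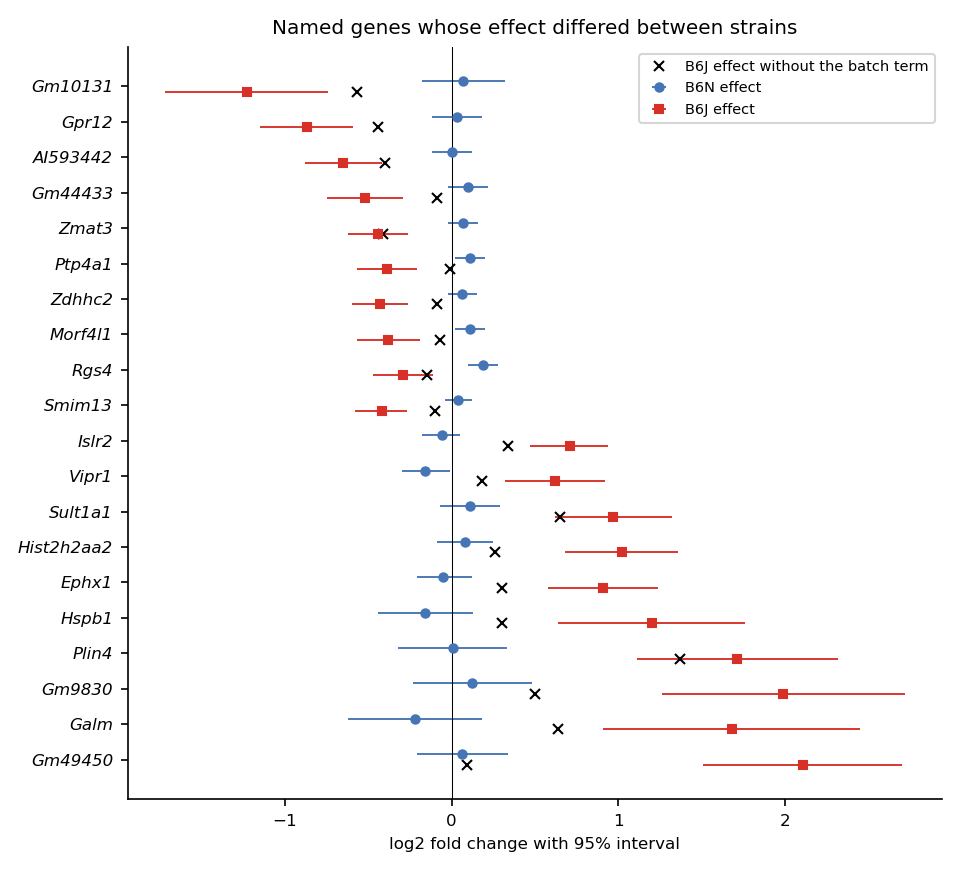
B6N effect (circles) and B6J effect (squares) with 95% intervals on a log2 scale for 20 genes of at least 1 CPM, the 10 with the largest difference past the threshold in each direction, and the B6J effect from a fit without the batch term (crosses). B6N effects lie near 0, and the crosses lie nearer to 0 than the squares, at 0.09 against 2.11 for Gm49450 and at 1.37 against 1.71 for Plin4.

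The repeat library weighed on the 62 differences as a set. It lay outside the range of the 16 batch 1 and batch 2 libraries of the mice in 49 of the 62 genes (79%), in 22 of the 33 genes changed in both strains, and in 26.3% of all genes of at least 1 CPM. The batch coefficient is subtracted in the B6J effect, and the B6J effect was opposite to it in sign in 61 of the 62 genes. The part of error in that coefficient was not tested. With choroid plexus markers as a covariate 21 of the 62 passed, and all 62 kept their sign. Genes with the difference above 0 had longer transcripts (median 2575 bases) and those below 0 shorter ones (974 bases) than all genes of at least 1 CPM (1662 bases), and with an offset for effective transcript length 4 of the 62 passed, while 61 kept their sign. The fitted difference under that offset was 0.97 for Gpr12, -1.71 for Plin4 and -1.03 for Islr2. Gm49450 was at 48.5 to 70.7 CPM in the 16 mice and at 14.2 CPM in the repeat library. Its difference was -2.04 ± 0.30 with the batch term and -0.02 without it. Rn7sk, the 7SK RNA that restrains transcription elongation, was at 16500 to 21600 CPM in the 16 mice and at 10400 CPM in the repeat library, and its difference went from -0.72 with the batch term to 0.20 without it.

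In 23 of the 62 genes the difference passed both with and without the batch term, 10 of them above 0 and 13 below 0. Gpr12, Plin4, Sult1a1, Tsc22d3, Klf15, Islr2, Ahnak, Camkk1, Rgs4, Slc8a1, Atp2a2 and Zmat3 were among them, together with the chromosome 9 gene AI593442 and the ubiquitin ligase adaptor Fbxl17. Within batch 2, against the repeat library alone, the difference for Sult1a1 shrank to -0.57, from -0.86, and did not pass. The call of AI593442 was lost without B6N wild type 1 (adjusted p = 0.0506, edgeR). That of Slc8a1 was lost without B6J knockout 1, B6N wild type 1 or B6N knockout 3 (adjusted p up to 0.0633, edgeR), and that of Fbxl17 without any 1 of these or B6N wild type 4 (up to 0.0566). Their median size was 0.52 with and 0.4 without the term. In the other 39 genes it was 0.51 with and 0.17 without. These 39 include Galm, Gm9830, Hspb1, Ephx1, Hist2h2aa2 and Vipr1 below 0, and Gm10131, Gm44433, Ptp4a1, Zdhhc2, Morf4l1 and Smim13 above 0. The members nearest the threshold were Numa1 (-0.36, adjusted p = 0.0477, edgeR) and Gm9830 (-1.87, adjusted p = 0.0481) inside it, and Man1a (0.55) and Chsy3 (0.65) outside it, both at an adjusted p of 0.051 by edgeR.

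Of 17 lipid droplet and lipolysis genes, Plin4 alone passed, in B6J. Plin2, the droplet coat protein of most cells, had effects of 0.12 ± 0.14 and 0.24 ± 0.29, and Plin5, that of mitochondria-rich tissues, of 0.04 ± 0.21 and 0.24 ± 0.41. Of 8 receptors comprising the Gpr3 family and relatives, Gpr12 and the cannabinoid receptor Cnr1 fell in B6J, against 0.192% of all genes tested. Cnr1 had effects of -0.13 ± 0.04 and -0.48 ± 0.08 and a difference of 0.34 ± 0.09 that did not pass (adjusted p = 0.102, edgeR), but passed within batch 2 (0.31, adjusted p = 0.0173), by DESeq2 (0.33, adjusted p = 0.0229) and without B6J transgenic 3 (0.36, adjusted p = 0.0435). Gpr3 had effects of 0.03 ± 0.13 and -0.15 ± 0.24 and Gpr6 of 0.15 ± 0.12 and -0.06 ± 0.23, with 95% intervals of the difference from -0.37 to 0.74 and from -0.33 to 0.74.

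Several genes of neuronal groups changed in B6N without a difference past the threshold in the fit with the batch term. Among 25 neuropeptide genes, 3 rose in B6N and 1 in B6J, against 0.969% and 0.546% of all genes tested. Cort, the peptide cortistatin of interneurons, was at 1.33 to 2.06 CPM in B6N wild types and 3.73 to 4.34 CPM in B6N knockouts, and at 2.18 to 2.78 CPM in B6J transgenics and 2.46 to 3.41 CPM in B6J knockouts, which overlapped. Its effects were 1.27 ± 0.15 (adjusted p = 2.31e-06, edgeR) and 0.93 ± 0.31 (adjusted p = 0.173, edgeR), with a 95% interval of the difference from -0.35 to 1.04. The repeat library was at 1.55 CPM, and without the batch term the difference was 0.96 and passed (adjusted p = 0.0115, edgeR), while within batch 2 the B6J effect of 0.93 passed (adjusted p = 0.00983, edgeR). Adcyap1, the peptide PACAP, had effects of 0.79 ± 0.15 and 0.17 ± 0.29.

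Of 22 circadian clock genes, 1 rose and 3 fell in B6N and 0 passed in B6J (2 at an unadjusted p under 0.05, 0 by DESeq2). For this list and the next, the shares over all genes tested were 0.969% rising and 0.671% falling in B6N. In B6J 0.738% passed. Arntl, which encodes the activator BMAL1, had effects of 0.43 ± 0.08 and 0.11 ± 0.16, and Per3, one of its repressors, of -0.36 ± 0.07 and -0.01 ± 0.14. Tef, a clock output factor, had effects of -0.30 ± 0.05 and -0.01 ± 0.10. The difference passed in 0 of the 22 by edgeR (5 at an unadjusted p under 0.05, 1 by DESeq2). Without the batch term it passed for Per3 (-0.47, adjusted p = 0.0148, edgeR) and Tef (-0.31, adjusted p = 0.0115, edgeR), and the B6N call of Per3 was lost without B6N knockout 3 (adjusted p = 0.0625, edgeR). The labels do not state the time of day of collection. Of 18 interneuron markers, 1 rose and 4 fell in B6N and 0 passed in B6J (5 unadjusted, 1 by DESeq2). Lamp5, the marker that rose in B6N, had effects of 0.31 ± 0.07 and 0.24 ± 0.14. Htr3a, the serotonin-gated channel of one interneuron class, had effects of -0.84 ± 0.14 and -0.47 ± 0.26, and Ndnf, a marker of layer 1 cells, of -0.37 ± 0.07 and -0.49 ± 0.13. The B6J effect on Ndnf passed without the batch term (-0.56), within batch 2 (-0.49), by DESeq2 (-0.48), and without B6J transgenic 1 (-0.49) or 2 (-0.53). In bulk tissue, fewer cells of a type and less RNA per cell cannot be told apart.

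Hippocampus libraries of B6N wild type and B6N knockout, 3 of each for RNA and 3 of each for ribosome footprints (the RNA fragments that ribosomes protect), gave a reading in samples that the forebrain comparison did not use. The labels call these mice C57BL/6NJ while the extraction protocol names the RNA background B6JN. In RNA 8 of 19352 genes passed (0.0413%), 6 rising (0.031%) and 2 falling (0.0103%), and in footprints 708 of 13227 (5.35%), 290 rising (2.19%) and 418 falling (3.16%). These counts leaned on single libraries. RNA gave 3 genes without wild type 2, 1 without wild type 3 and 0 without knockout 3, and footprints gave 152 without wild type 2, 32 without wild type 3, 264 without knockout 1 and 59 without knockout 2. Of the 30 genes that rose in both strains of forebrain, 29 were measured in hippocampus RNA, all 29 with values above 0 (median 0.31), and 4 passed: Atf4 (0.65), Chac1 (1.34), Mthfd2 (1.18) and Cars (0.57). In footprints 26 of 30 were above 0 (median 0.49), with 19 rising and 1, Nudt3 (-0.77), falling. Atf4 footprints rose by 1.38 and those of Slc7a1 by 0.96. The 3 genes that fell in both strains were below 0 in both hippocampus assays, and Gng3 footprints fell by 0.77.

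Over the genes whose effect differed between strains, the medians in hippocampus RNA were -0.03 over 16 genes with the difference above 0 and 0.03 over 39 genes below 0. Their B6N effects in forebrain already had medians of 0.07 and -0.06, while genes changed in both strains were chosen for a B6N effect. The contrast between these sets in B6N hippocampus therefore follows in part from how they were chosen. Plin4 was at 0.15 in RNA and -0.67 in footprints, and Gpr12 at -0.02 and -0.46, none of them past the threshold. In footprints, of the 16 genes with the difference above 0, 1 rose, Rgs4 (0.47), and 3 fell, among them Zmat3 (-0.87) and AI593442 (-0.52). Of 37 measured genes with the difference below 0, 1 rose. The largest RNA values among these genes were 0.67 for Rn7sk and 0.56 for Gm49450, neither of them past the threshold. A B6J hippocampus was not analysed here.

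**Figure D5:**
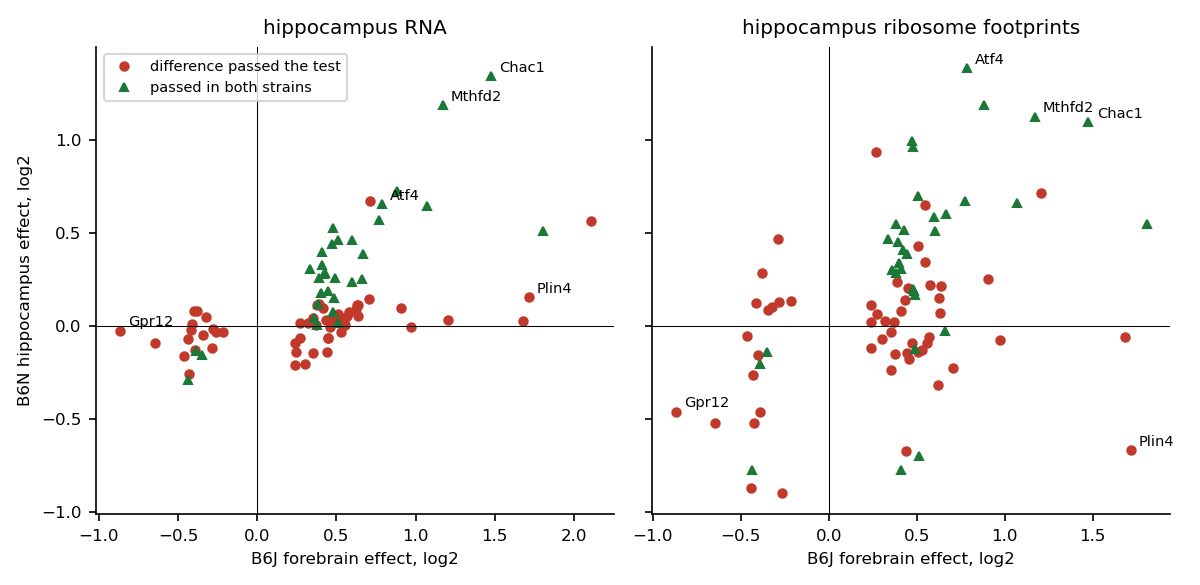
B6J forebrain effect (x axis) against the B6N knockout effect in hippocampus (y axis) for RNA (left) and ribosome footprints (right), all as log2 fold changes. Genes that passed in both forebrain strains (triangles) lie above 0 in hippocampus RNA except for the 3 that fell. Genes whose forebrain effect differed between strains (circles) have medians of -0.03 and 0.03 in RNA by direction, with Rn7sk at 0.67 and Gm49450 at 0.56, and spread more widely in footprints. Triangles were chosen for a B6N forebrain effect, and circles had B6N forebrain medians of 0.07 and -0.06.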

How the data were processed

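Forebrain libraries were ribosomal RNA depleted and stranded, per the labels. The deposited values are estimated counts per transcript, with effective lengths, in the layout of kallisto (version 0.42.4 in the submitters' processing notes, which also name mm10). The 138835 transcripts were summed to 54752 genes and rounded. Hippocampus values are deposited counts per gene, for which the submitters' processing notes name HISAT2 2.1.0, Bowtie2 2.2.3 and featureCounts. Transcripts with a near-identical copy or an overlapping gene can share reads in either method.

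All 21 forebrain libraries, including 4 from B6J mice without transgene that share the estimate of spread, were fitted in edgeR 4.0.16 (R 4.3.3). Libraries were scaled by TMM, low genes were removed by filterByExpr (count minimum 10), and dispersions were robust. Terms were group, batch and a coefficient for transgenic mouse 4, whose libraries in both batches set the batch term, and the transgenic mean weighted the 4 mice equally. Each hippocampus assay was fitted alone, by genotype. Benjamini-Hochberg adjustment ran over all genes tested. Standard errors are the log2 fold change over the square root of F. DESeq2 1.42.0 and limma 3.58.1 served alternatives, and the scripts were tested on simulated data. Replicates are separate mice by label. No 2 libraries of a group agreed within counting noise (lowest chi-square per degree of freedom 2.73 over 28 pairs). Pairs of B6J knockouts were at 10.5 to 51.8, against 2.73 to 9.2 for pairs within batch 1. All groups shared 1 estimate of spread, and whether it was too small for B6J knockouts was not tested. The 2 libraries of transgenic mouse 4 were at 36.9, so this measure cannot tell separate mice from 1 mouse.

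Named genes were Atf4, Gpr12 and Plin4, the largest changes in both strains (by the smaller effect) and in the difference at 1 CPM or more, and the leading members of each list. Klf15, Ahnak, Camkk1, Slc8a1, Atp2a2, Fbxl17, Kif5a, Fkbp5, Map3k6, Gars, Aars, Atf5, Adcyap1, Per3, Tef, Plin2, Plin5, Gpr3, Gpr6 and the genes next to the threshold were added after their values were seen. Members and lists were chosen with earlier results of these data known. One gene that met the naming rule is not reported here by name.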

Additional observations from a re-analysis of the deposited data

Results flagged for a closer look

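Of 84 groups of 4 mice (21 genes), 7 held a library whose gap to its nearest neighbour, over the range of the group, was above Dixon's critical value at the 95% level, where chance gives about 1 in 20. Atf4 was lowest in B6N wild type 4 (54.9 CPM), Chac1 highest in B6N knockout 3 (8.16 CPM), and Gng3 highest in B6J transgenic 1 (87.1 CPM). Sult1a1 was highest in B6J transgenic 4 (9.37 CPM in batch 1), Tsc22d3 highest in B6J knockout 4, the male one (90.3 CPM), Klf15 lowest in B6N knockout 3 (16.2 CPM), and Slc7a3 lowest in B6J knockout 2 (10.7 CPM).

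The effect of n-Tr20 loss differed between strains by a test of the difference itself (edgeR, adjusted p under 0.05) in genes whose B6N effect was lower on the log2 scale, namely Gm49450 (-2.04), Galm (-1.90), Gm9830 (-1.87), Plin4 (-1.71), Hspb1 (-1.36), Ephx1 (-0.96), Hist2h2aa2 (-0.94), Sult1a1 (-0.86), Vipr1 (-0.78), Islr2 (-0.77), Klf15 (-0.75), Rn7sk (-0.72), Jdp2 (-0.69), Ahnak (-0.63), Tsc22d3 (-0.62), Camkk1 (-0.52), Nolc1 (-0.50) and Chgb (-0.44). The B6N effect was higher in Gm10131 (1.30), Gpr12 (0.90), AI593442 (0.65), Gm44433 (0.62), Zmat3 (0.51), Ptp4a1 (0.50), Zdhhc2 (0.50), Morf4l1 (0.49), Rgs4 (0.48), Smim13 (0.46), Fbxl17 (0.46), Atp2a2 (0.41) and Slc8a1 (0.35). Without the batch term 39 of the 62 differences did not pass, with Gm49450, Jdp2, Nolc1 and Chgb among them. The sign of Rn7sk was then reversed. Controls were wild type in B6N and transgenic in B6J, so the comparison is not of strain alone.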

How the results depend on the processing

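The counts for the B6N effect, the B6J effect, the difference and both strains were 418, 188, 62 and 33. Without the batch term the last 3 were 3615, 653 and 221. Within batch 2, which equals the fit in which mouse 4 has no coefficient of its own, they were 1800, 758 and 113, and with DESeq2 460, 252 and 56. With the male B6J knockout 4 alone they were 96, 32 and 21, and with a transcript length offset 67, 6 and 8, where the B6N effect gave 138. With choroid plexus markers as a covariate the B6J effect gave 113 and the difference 34, and limma voom, chosen after seeing the data because mouse as a random block could not be estimated, gave 106 for the difference. The share of rises among B6J calls also moved, from 139 against 49 to 1691 against 1924 without the batch term, and for the difference from 19 against 43 to 413 against 240. Without the batch term the Rn7sk B6J effect was -0.21 and its difference 0.20, both reversed. The cause of these changes was not tested. Hippocampus RNA gave 138 genes by DESeq2 and 135 without a filter on low counts, and footprints 1080 by DESeq2.

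Leaving out 1 library gave 186 to 649 genes for the B6N effect, 134 to 402 for the B6J effect, 39 to 211 for the difference, 25 to 53 for both strains, 0 to 10 for hippocampus RNA and 32 to 916 for footprints. Leaving out a library of transgenic mouse 4 was not run with the batch term, since it removes the link between batches. The fit without that term left out the repeat library. Replicate numbers did not pair the samples (correlations of deviations from -0.18 to 0.15), and with a replicate block the 6 counts were 466, 216, 69, 35, 6 and 630. Depth of 14.8 to 38.5 (in units of 1000000 counts) limited genes under 1 CPM, and the single link between batches limited the B6J effect.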
